A study of Mus musculus with 14 samples.

Results

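Motoneuron progenitors sorted for an Olig2 reporter were compared gene by gene with unsorted neural progenitors, both grown from mouse embryonic stem (mES) cells. The cells were wild type in background and were collected on day 4 of differentiation in retinoic acid and an agonist of sonic hedgehog. The motoneuron progenitors came from a line that carried Olig2:cre with Rosa26:LSL:tdTomato, and the tdTomato-positive fraction was kept. The neural progenitors had no genetic reporter. Because Cre removes a stop cassette for good, a cell stays red after Olig2 has been switched off, so the sorted fraction holds cells that have, or once had, active Olig2:cre. The populations had 1 library each, so the difference between them has no replicate check and no test was made of it. The sort and the change of cell line also cannot be told apart. Of 23523 gene entries in the deposited table, 1306 on chromosomes X and Y were set aside and 8993 did not reach a signal of 10 in either library, which left 13224 genes.

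The same genes were read in wild-type (WT) embryos at stage E12.5, in which 6 libraries of motoneurons had been sorted from spinal cord by the green fluorescence of Hb9::gfp. V1, V2a and V3 interneurons gave 1 tdTomato-positive library each, from embryos with a Cre driver of that class (En1:cre for V1, Sim1:cre for V3) and Rosa26:LSL:tdTomato. Of the 14 samples in the labels, the 2 libraries of knockout motoneurons and the floor plate sample were not used here. The deposited signal is an abundance scaled by the authors for gene length and between libraries, so it can be set side by side between genes. About 25.8 M reads stood behind the motoneuron progenitor library and 23.2 M behind the neural progenitor library. In a transcript of 2000 bases, 3 reads gave a signal of 1.21 in both, and values near or under that level carry little information. Intervals below are 95% Clopper-Pearson intervals of the log2 ratio of reads, and they cover counting error only. In such bulk libraries, fewer cells of a type and less RNA per cell cannot be told apart.

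In the ventral neural tube, sonic hedgehog from the notochord and floor plate sets up stripes of dividing progenitors, each marked by its own transcription factors. Motoneurons arise from the pMN domain, which is defined by the bHLH repressor Olig2; the p3 domain lies ventral to it and makes V3 interneurons, and the p2 domain lies dorsal to it and makes V2 interneurons. Notch signalling keeps neighbouring progenitors from all differentiating together: ligands of the Delta family on one cell activate Notch receptors on the next, and the receptor's cleaved domain acts with the DNA-binding protein Rbpj on genes of the Hes and Hey families. Retinoic acid both drives neural differentiation and helps set the position along the body axis that Hox genes encode.

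Notch pathway genes were among those that stood highest in the sorted progenitors, so their promoters were searched for the core of the Rbpj motif, GTGGGAA or its reverse complement TTCCCAC, in the 250 bases before the start site on both strands (RefSeq, GRCm38). Of 18 Notch genes with a promoter sequence, 3 held the motif. They are shown 5′ to 3′ along the gene with the matching bases in capitals, because they hold the motif. The size of the difference between the libraries played no part in which of the 18 are shown. The first window lies at chr4:154960673-154960871 on the plus strand, the second at chr10:30842959-30843015 on the minus strand and the third at chr5:140607207-140607263 on the plus strand.
Hes5: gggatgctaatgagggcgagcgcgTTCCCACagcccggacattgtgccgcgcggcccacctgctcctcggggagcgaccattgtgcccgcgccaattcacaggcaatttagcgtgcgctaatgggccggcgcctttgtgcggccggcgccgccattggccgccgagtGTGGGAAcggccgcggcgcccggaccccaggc
Hey2: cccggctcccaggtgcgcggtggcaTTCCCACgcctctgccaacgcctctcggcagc
Lfng: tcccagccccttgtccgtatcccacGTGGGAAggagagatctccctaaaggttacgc
Hes5 carried a copy on each strand, and Hey2 and Lfng carried 1 copy each. The motif occurred in 3 of the 23 windows of Notch genes (13.0%) and in 1779 of all 32851 promoter windows (5.42%). A match of these letters is a description of the sequence and no evidence of binding.

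Across all 13224 genes the libraries were similar: the median difference in log2(signal + 1) was -0.02 and 10273 genes (77.7%) lay within 2-fold. At least 2-fold higher in the motoneuron progenitors were 1076 genes (8.14%), and at least 2-fold lower were 1875 (14.2%). By a 4-fold limit the numbers were 243 and 545. The excess on the lower side was found among genes with little signal. Among the 8959 genes that reached a signal of 100, 656 were higher and 686 lower. The lower genes had a median signal of 59.5 in the neural progenitors, and the higher genes had a median of 173 in the motoneuron progenitors. Of the genes apart by 2-fold, 36.5% were higher in the motoneuron progenitors; when both libraries were instead scaled to equal totals this share was 19.4% (634 higher, 2641 lower), and the median of all genes moved to -0.29. The genes nearest to the 2-fold limit differed by 1.0023 and 0.9997 on the log2 scale on the higher side and by -1.0004 and -0.9996 on the lower side.

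**Figure D1:**
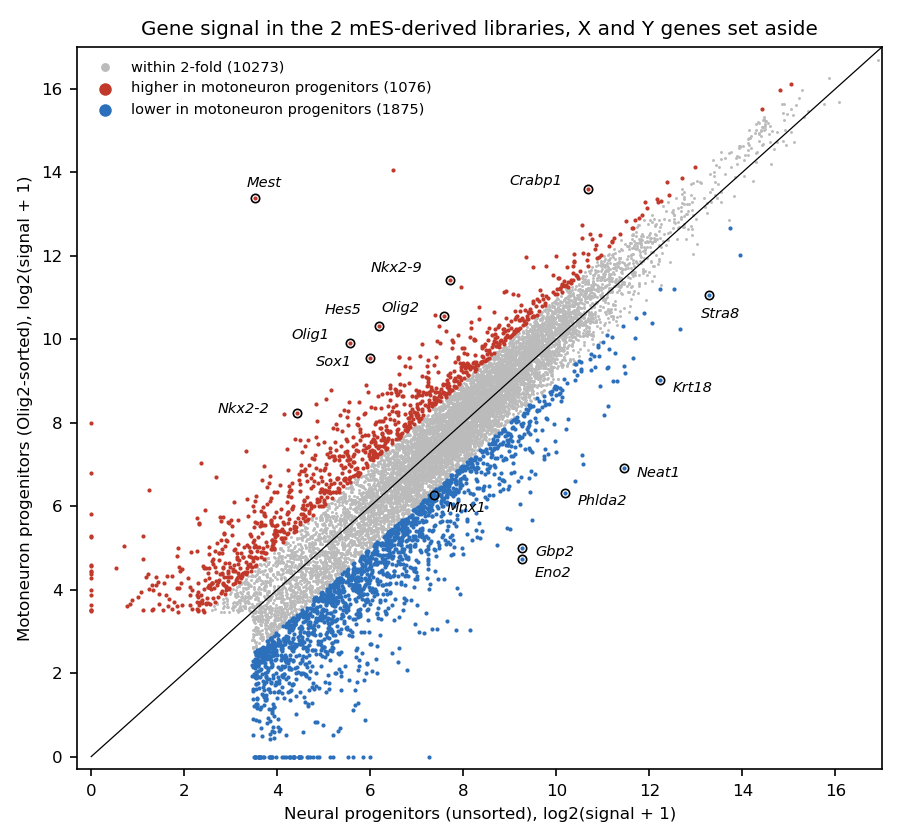
Signal of each of the 13224 genes in the neural progenitors (x axis) and in the motoneuron progenitors (y axis), both as log2(signal + 1), 1 library each; red points are the 1076 genes at least 2-fold higher and blue points the 1875 at least 2-fold lower in the motoneuron progenitors. Mest stands alone at the upper left with 10762 against 10.5, and the patterning genes Olig2, Nkx2-9, Hes5 and Sox1 lie well above the diagonal.

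The 3 genes given as markers of the sorted cells were all higher there, which is no independent check of what these cells are. Olig2 (chromosome 16, 91225550 to 91228677, GRCm38), the gene whose driver was used for the sort, had a signal of 1495 in the motoneuron progenitors and 191 in the neural progenitors. That is 7.82-fold, or 2.96 on the log2 scale (counting interval 2.84 to 3.09). Nkx2-9 (chromosome 12, 56611389 to 56613569), a hedgehog-induced homeobox gene of the most ventral progenitors, stood at 2728 against 208, a 13.1-fold difference. Mest (chromosome 6, 30733506 to 30748466), an imprinted gene that is expressed from the paternal copy, stood at 10762 against 10.5, which is 1026-fold. Genes of the Y chromosome set the libraries apart. Of these, Eif2s3y, Ddx3y, Uty and Kdm5d were listed at 0 in the motoneuron progenitors and at 892, 258, 154 and 11.2 in the neural progenitors. Xist, which silences the second X in female cells, was low in both (1.31 and 7.01). The part of the 2 cell lines in any difference below was not tested.

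Of the 10 transcription factors of the pMN domain, 8 were at least 2-fold higher in the sorted cells, 1 was lower and the median difference was 2.09, where over all genes 8.14% were higher, 14.2% were lower and the median was -0.02. Olig1, the neighbour and close relative of Olig2, had 963 against 46.3 (20.8-fold). Nkx6-1 and Nkx6-2 are homeobox repressors that are needed for motoneuron fate. Nkx6-1 stood at 1519.7 against 168, a difference of 3.17, and Nkx6-2 at 939.8 against 137, a difference of 2.77. Pax6, a homeobox gene of most progenitors outside the most ventral ones, was at 301 against 114. Neurog2, the proneural factor that moves pMN cells into neuronal differentiation, was at 204 against 55.5. Its relative Neurog1 (87.2 against 47.3) did not reach 2-fold. Scaled to equal totals, Isl1 (0.87) also came inside the 2-fold limit.

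Set beside the embryonic motoneurons, the sorted progenitors had more of the early and less of the late genes of this list. Olig2 was at 1495 in the progenitors and, in the 6 WT motoneuron libraries, at 2.29 (lowest), 3.03 (median) and 7.86 (highest); the V1, V2a and V3 libraries had 2.32, 0.891 and 0.944. Embryonic cells of either class thus had almost none of it. Isl1, a LIM homeobox gene switched on as motoneurons leave the cell cycle, went the other way: 101 and 45.2 in the stem cell progenitors, and 1593, 1846 and 2323 in motoneurons. Lhx3, its partner in specifying motoneurons, was at 113 against 21.9 in the progenitors and had a median of 782 in motoneurons.

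Mnx1 (Hb9) was the exception of the list. This homeobox gene holds the motoneuron fate against that of V2a interneurons, and it was lower in the sorted progenitors, at 75.9 against 165 (-1.11, counting interval -1.36 to -0.88). In WT motoneurons it ran from 2194 to 3995, against 0.775, 7.46 and 3.16 in V1, V2a and V3, and limma called it higher there (log2 difference 9.60 ± 0.38 SE, adjusted p = 2.3e-07). Prph, the peripherin filament of neurons with peripheral axons, had the same order: 83.2 in the sorted cells, 343 in the unsorted ones and a median of 6014 in motoneurons.

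**Figure D2:**
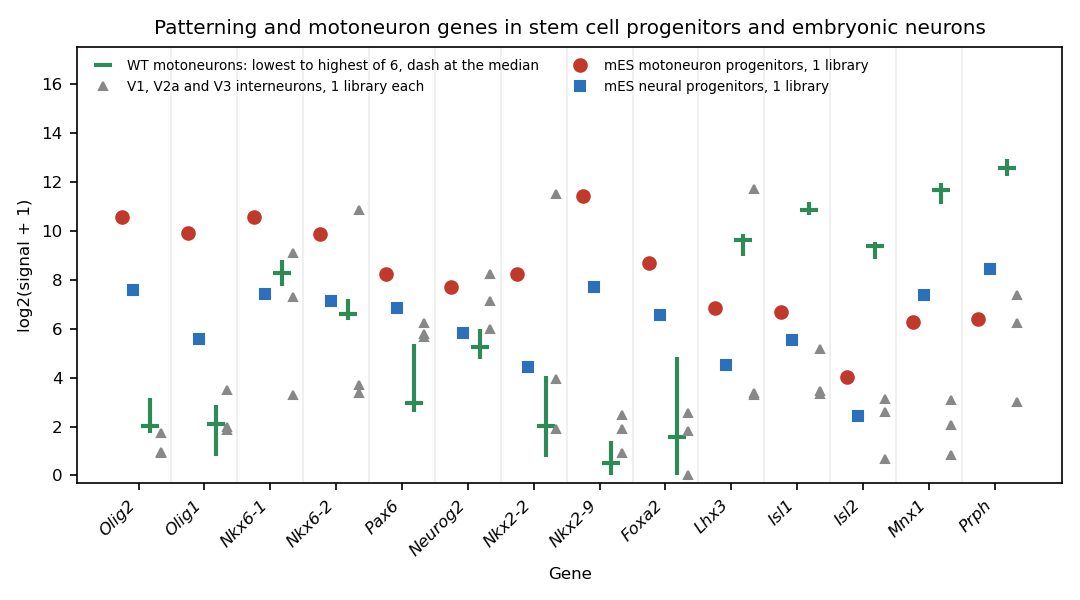
Signal of 14 patterning and motoneuron genes as log2(signal + 1), with the motoneuron progenitors as red circles and the neural progenitors as blue squares (1 library each), the range of the 6 WT motoneuron libraries as green bars with a dash at the median, and V1, V2a and V3 as grey triangles. Progenitor factors from Olig2 to Foxa2 are highest in the sorted stem cell progenitors or in single interneuron classes, Isl1, Mnx1 and Prph are highest in motoneurons, and Mnx1 and Prph are the only 2 of these genes at which the blue square is above the red circle.

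Most postmitotic motoneuron genes were higher as well, with Isl2 and Slc18a3 still far below their level in the embryo. Among its 18 genes 14 were compared, and of these 11 were at least 2-fold higher in the sorted cells and 2 lower, with a median of 1.36. Ret, the receptor for glial cell line-derived neurotrophic factor, was at 295 against 56.9. Isl2 was at 15.3 against 4.35, where its median in WT motoneurons was 662. Slc18a3, the transporter that loads acetylcholine into vesicles, was at 36.8 against 16.7, and its median in motoneurons was 2105. Chat, which makes acetylcholine, was below a signal of 10 in both (4.88 and 4.87).

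General neuronal genes differed less. Of 22 compared, 9 were higher, none lower by 2-fold, and the median was 0.81. The early ones led: Insm1, a zinc finger factor of newborn neurons, had 187 against 44.2, and the bHLH gene Nhlh1 had 96.7 against 26.5. Genes of growing axons were close to each other, such as the microtubule regulator Stmn2 (152 and 145), whose median in WT motoneurons was 21415. Tubb3, a tubulin of neurons, was at 821 and 423, just inside the 2-fold limit.

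Markers of the p3 domain and the floor plate were also higher in the sorted cells. Of 13 such genes 8 were compared, 5 were at least 2-fold higher, 1 was lower and the median was 1.57. Nkx2-2, the p3 homeobox repressor, had 298 against 20.4 (14.6-fold), and in the embryo it was high in V3 alone (2858, against at most 15.8 in the motoneurons). Foxa2, a forkhead factor of floor plate and endoderm, was at 404 against 93.8. Spon1 (F-spondin) was at 201 against 27.3, and the attractant Ntn1 at 559.8 against 272. Defining markers of the end states were close to absent: Sim1 of V3 cells (0.219 and 0.328) and Shh of the floor plate (3.33 and 0.302). The summed signal of the list was 4475 in the sorted and 999 in the unsorted cells. Of this, Nkx2-9 alone gave 2728 and 208. Which cells carried the signal was not tested. Lmx1b, a LIM homeobox gene of floor plate and serotonergic precursors, was the lower one (30.5 against 101).

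Dorsal to pMN the picture was mixed. Of 18 markers of the p2 to p0 domains and their neurons, 7 were compared, with 4 higher, 2 lower and a median of 1.53 (0.49 at equal totals and 0.76 with a minimum signal of 20). Among those that reached a signal of 100, which are Gata2, Irx3 and Nkx6-2, the median was that of Irx3, 9.3e-05. Irx3, which sets the dorsal border of pMN, was at 124 in both libraries. Irx5 was at 28.5 against 5.69 and Foxn4, of p2 progenitors, at 31.5 against 10.3. Gata2 and Gata3, which mark V2b neurons and also blood and trophoblast cells, were the 2 lower genes: Gata2 23.6 against 151, Gata3 17.8 against 44.8. En1, which marks V1 neurons, was close to 0, at 0.632 and 1.58.

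Dorsal progenitor and neuron markers were mostly too low to compare. Only 9 of 23 were compared, with 1 higher, 2 lower and a median of 0.29, where over all genes 8.14% were higher and 14.2% lower. The lower ones, Msx2 and Pax3, are roof plate and dorsal genes; Msx2 was at 11.9 against 32.0 and Pax3 at 4.80 against 13.1. Pax7, Atoh1 and Lbx1 stayed below a signal of 5 in both libraries.

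Neural progenitor genes as a class were higher in the sorted cells: 13 of 19 by at least 2-fold, 1 lower, median 1.57. Hes5, described below, had the largest difference of those compared, and the SoxB factors Sox21 and Sox1 came next. Sox1 was at 747 against 62.6 (11.9-fold) and Sox21 at 348 against 27.3. Sox2, at 1645 against 553, had the median difference of the list. Sox3 lies on the X chromosome and was set aside; it stood at 1845 against 120.4. Genes of radial neuroepithelial cells were higher too, among them the glutamate transporter Slc1a3 (414 against 74.6), N-cadherin Cdh2 (1017 against 215) and the filament Vim (5496 against 1501). Nes, the filament most used to mark neural progenitors, differed by 2.02-fold (749.6 against 372). Sox9, of later glial progenitors and neural crest, was the lower one, at 80.0 against 199.

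Within the Notch pathway, 15 of the 23 genes compared were at least 2-fold higher in the sorted progenitors and none was lower, with a median of 1.62. Among the ligands, Dll1 was at 569 against 96.7 and Dll3 at 337 against 81.9. Dll4 and Jag1 had less signal, 47.9 against 10.5 and 60.1 against 18.9. Jag2 was the ligand with the opposite sign, at 102 against 181, which is within 2-fold. The receptor Notch1 was at 543 against 146 and Notch2 at 398 against 177, whereas Notch3 was at 340.4 and 320.2.

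Genes that modify or transmit the Notch signal differed unequally. The fringe enzymes add sugars to Notch and change its response to ligands: Lfng was at 477 against 85.3, Mfng at 324 against 67.6 and Rfng at 219 and 173. Rbpj, the DNA-binding partner of Notch, was at 629.5 and 842. The ubiquitin ligase Mib1, which acts in the cell that sends the signal, was at 346 and 463. Both of these were within 2-fold, as was Numb, whereas the co-activator Maml3 (192 against 53.6) and the regulator Dtx4 (658 against 148) were higher.

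The targets held the largest difference of the pathway. Hes5 was at 1265 against 71.4 (17.7-fold; log2 difference 4.13, counting interval 3.87 to 4.43). Hey2 was at 86.7 against 12.7 and Hes1 at 1221 against 463. Hey1 was within 2-fold (166 and 118). Hes5, Hey2 and Lfng are the genes whose promoters are printed above with the Rbpj motif. In the embryo Hes5 ran from 6.64 to 50.3 in WT motoneurons with a median of 17.9, and stood at 51.4, 213 and 317 in V1, V2a and V3, all of which lay above the highest motoneuron library. Limma called Hes5 lower in motoneurons (log2 difference -3.01 ± 0.62 SE, adjusted p = 0.00472).

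**Figure D3:**
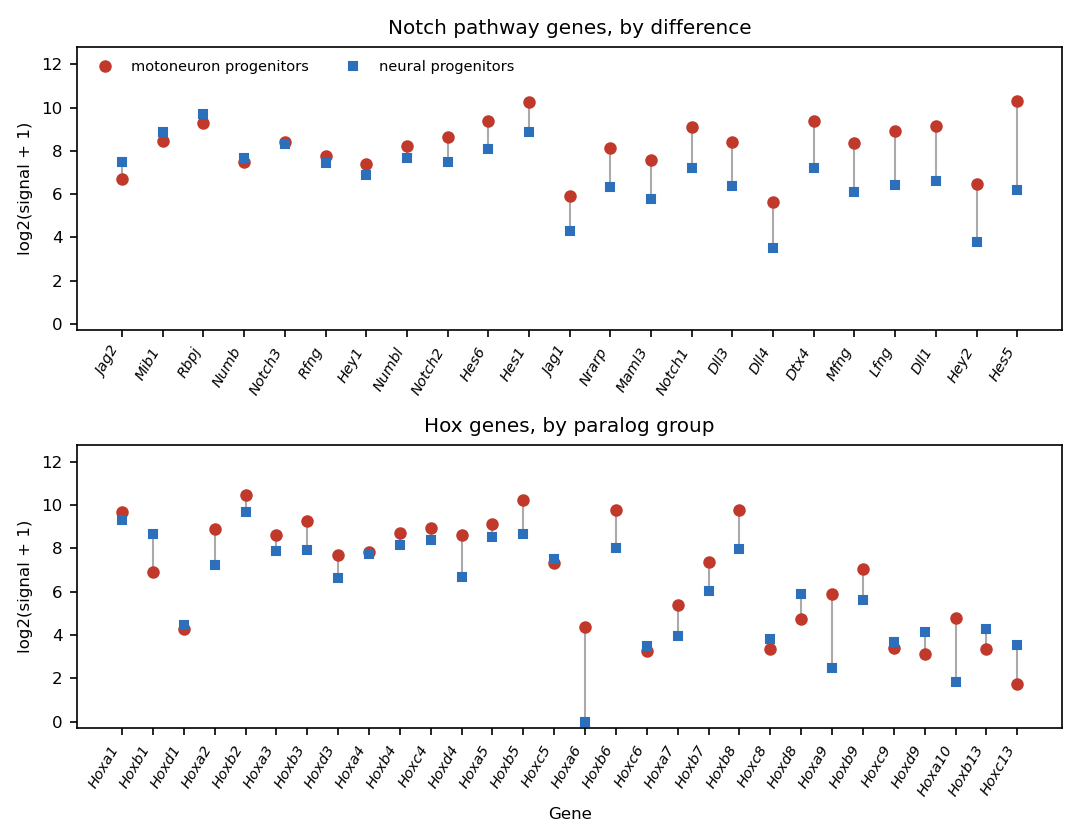
Signal of the 23 Notch pathway genes (upper panel, ordered by difference) and the 30 Hox genes (lower panel, ordered by paralog group) in the motoneuron progenitors (red circles) and the neural progenitors (blue squares), as log2(signal + 1), with a grey line joining the 2 libraries. The gap widens from Jag2 to Hes5 in the upper panel; in the lower panel red circles lie above for most genes of the A and B clusters, and below for Hoxb1 and for most genes of the C cluster.

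Hedgehog pathway genes were mostly higher in the sorted cells or within 2-fold. Of 16 compared, 7 were higher, 1 was lower and the median was 0.92. Direct targets that report the strength of the signal were among the higher ones: Gli1, a transcriptional activator, at 812 against 258; the receptor Ptch1 at 2838 against 1055; and Hhip, which binds the ligand, at 98.6 against 21.2. Smo, the transducer, was at 1002 against 517, within 2-fold. Among the co-receptors, Cdon was at 92.3 against 265, the 1 lower gene, and Gas1 was at 306 against 485, which is within 2-fold. The co-receptor Boc went the other way, at 124 against 47.1, and the pathway inhibitor Sufu was also higher (354 against 165).

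Retinoic acid genes fell on both sides. Of 18 compared, 3 were higher and 5 lower, where over all genes 8.14% were higher and 14.2% lower. The median of 0.18 changed sign to -0.10 when libraries were scaled to equal totals and to -0.16 in the transcript table. Both retinoic acid-binding proteins of the cytoplasm were higher. Crabp1 was at 12457 against 1646 (7.57-fold) and Crabp2 at 14034 against 5291. The 5 lower genes included Stra8, named for its response to retinoic acid, at 2145 against 9926, the degrading enzyme Cyp26a1 at 1277 against 2765 and the retinal reductase Dhrs3 at 422 against 934. Receptors did not move together, since Rarg was at 81.6 against 439 and Rarb at 324 and 306.

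Of 29 genes of FGF, BMP and Wnt signalling, 11 were higher and 3 lower, and the median of 0.24 became -0.06 at equal totals. Secreted antagonists stood out on the higher side: the Wnt antagonists Sfrp1 (956 against 179) and Sfrp2 (1007 against 303) and the BMP antagonist Nog (81.5 against 21.4). Feedback targets of FGF were there too, among them Dusp6 (696 against 226) and Etv5 (438 against 158). The lower genes were Bmp4 (12.55 against 34.3), Lef1 and Wnt8a, each under a signal of 40.

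Of 39 Hox genes 30 were compared, and 13 of these were at least 2-fold higher in the sorted progenitors, 4 were lower and the median was 0.70. The higher ones came from the A, B and D clusters, from Hoxa2 (479.7 against 149.6) to Hoxa10 (26.9 against 2.61). Middle paralog groups of the B cluster had high signal, such as Hoxb5 at 1206 against 407, Hoxb6 at 890.1 against 258 and Hoxb8 at 882 against 252. Hoxa6 was at 19.6 in the sorted cells and listed at 0 in the unsorted ones. Hoxb1, of the hindbrain, was lower, at 121 against 412. No gene of the C cluster was higher by 2-fold; Hoxc4 was at 486 and 334, and Hoxc6, Hoxc8 and Hoxc9 had under 15 in both.

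In the embryo the same Hox list was read in a different contrast, that of motoneurons with interneurons. By limma, 24 of the 30 were lower in WT motoneurons than in interneurons and none was higher (0 also at an unadjusted p under 0.05), where over all 16486 genes tested 15.2% were called lower and 17.7% higher. Hoxb6 ran from 162 to 366 in motoneurons with a median of 185, against 1315, 1587 and 1629 in V1, V2a and V3 (log2 difference -2.85 ± 0.23 SE, adjusted p = 1.8e-05). Its 890.1 in the sorted progenitors lay between these groups. The axial levels taken from each embryo are not in the labels, and their part in this was not tested.

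Most cell cycle genes lay within 2-fold, as did 77.7% of all genes. Of 29 compared, 5 were higher and 1 was lower, where over all genes 8.14% were higher and 14.2% lower. The median was 0.59, and the largest differences were those of the D cyclins, which link growth signals to division. Ccnd2 was at 3382 against 717 and Ccnd1 at 764 against 234. The proliferation marker Mki67 was at 1009 and 979, and Top2a at 2296 and 3264. In WT motoneurons, which no longer divide, Mki67 was at most 17.2. Cdkn1c, an imprinted inhibitor of the cell cycle, was lower in the sorted cells (622 against 1478).

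Genes of the pluripotent state remained on in both libraries at day 4. Pou5f1 (Oct4) was at 731 in the sorted and 956 in the unsorted cells, Nanog at 770.2 and 533, and Dppa5a at 8722 and 5817. In the 6 WT motoneuron libraries Pou5f1 was at most 1.65. Of 24 genes compared, 1 was higher and 5 were lower, with a median of -0.10, where over all genes 8.14% were higher and 14.2% lower. Klf4 was the higher one (185 against 67.9). The lower ones were led by the Nodal co-receptor Tdgf1 (114 against 701) and the zinc finger gene Zfp42, also named Rex1 (110.2 against 448). The summed signal of this list was 16396 in the sorted and 14980.5 in the unsorted cells.

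**Figure D4:**
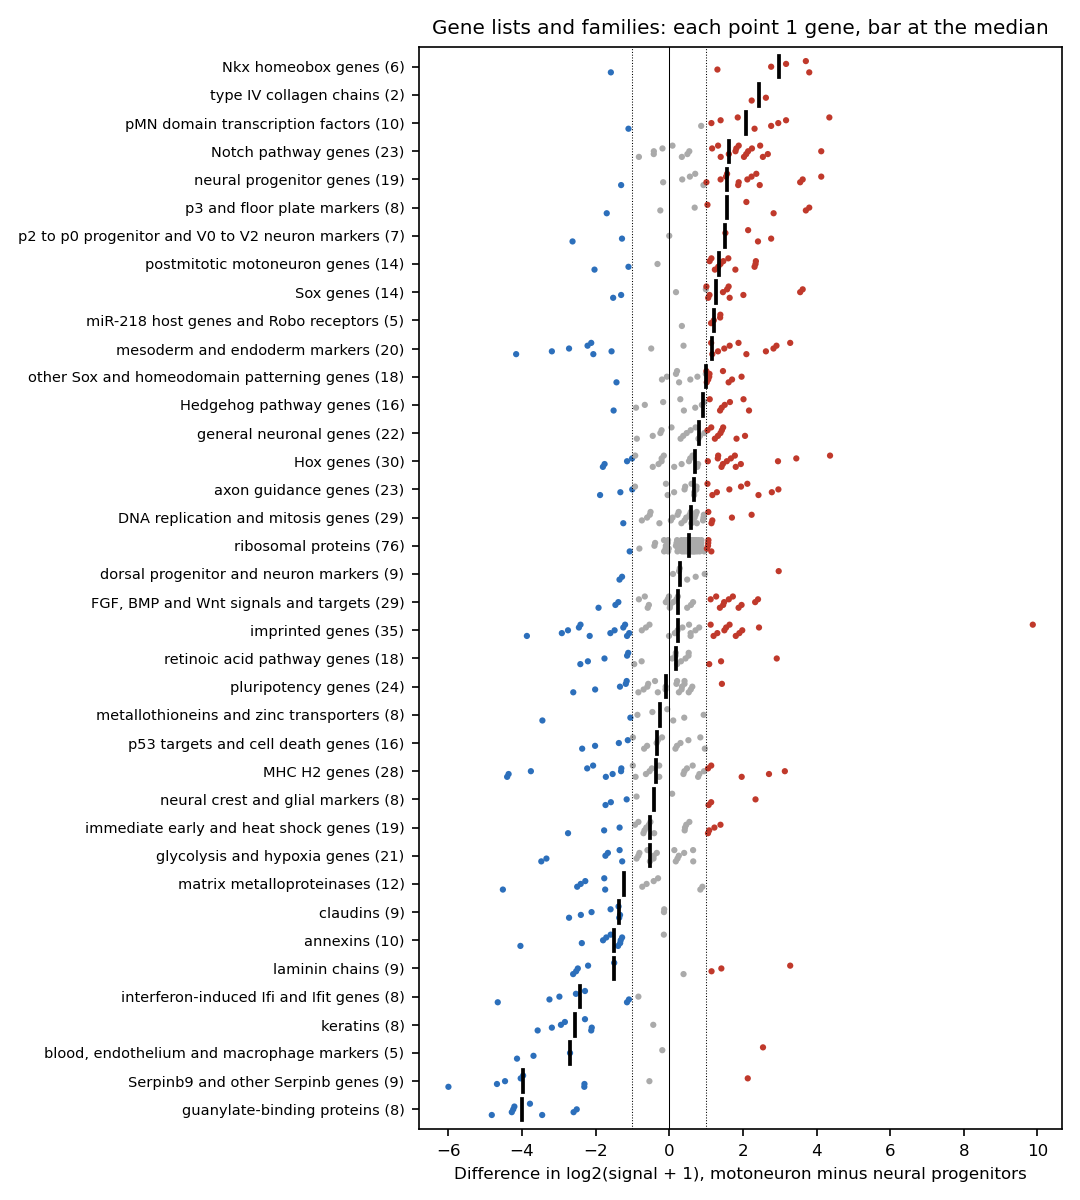
Difference in log2(signal + 1), motoneuron minus neural progenitors (x axis), for every gene compared in each list or family (rows, number of genes in parentheses); each point is 1 gene and the bar is the median. The medians of the type IV collagens, pMN factors, Notch and progenitor genes lie to the right, and those of the keratins, Serpinb genes and guanylate-binding proteins to the left.

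Epithelial genes were prominent among those lower in the sorted cells. In the list of mesoderm and endoderm markers 20 of 26 genes were compared, with 11 higher, 7 lower and a median of 1.15, and the 2 sides held different kinds of gene. Lower in the sorted cells were genes of simple epithelia: E-cadherin Cdh1 at 509 against 2373, the adhesion gene Epcam at 469 against 1963 and the tight junction gene Cldn6 at 334 against 2206. Hand1, a bHLH factor of lateral mesoderm and trophoblast, was at 2.98 against 70.0. Higher were the endoderm factors Gata4 (257 against 69.0), Gata6 (159 against 63.0) and Sox17 (60.7 against 18.8), beside Foxa2 given above. Mesoderm markers of the primitive streak were close to 0 in both, with T at 0.789 and 1.18 and Mixl1 at 0.705 and 0.703. The summed signal of the list was 10472 in the sorted and 16036 in the unsorted cells, and the part of such cells in the other differences was not tested.

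The gene families here and in the paragraphs on basement membrane and interferon-induced genes were chosen by symbol after their values were seen. Their direction is therefore no further support, and Krt18 and Cldn6 were already counted in the list above. Of 8 keratins 7 were lower by 2-fold and none higher (median -2.56), among them Krt18 (523 against 4772), Krt19 (289 against 2066) and Krt7 (128 against 1531). Of 9 claudins 7 were lower, such as Cldn4 (650.2 against 2809), and of 10 annexins, which bind membranes in a calcium-dependent way, 9 were lower. Anxa2 was at 774 against 1931 in the progenitors, and in the embryo from 1224 to 1931 in motoneurons against 10.7, 56.1 and 95.4 in the interneurons. Krt18 by contrast did not exceed 6.79 in any motoneuron library.

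The basement membrane genes divided by chain. Of 9 laminin chains 3 were higher and 5 lower (median -1.49, but 0.77 among those that reached a signal of 100). The 3 higher chains, Lama1, Lamb1 and Lamc1, together form the laminin of early embryonic basement membranes. Lama1 was at 2421 against 247 (9.78-fold), Lamb1 at 2478 against 1117 and Lamc1 at 2829 against 1060.3. The 2 major type IV collagens were on the same side, with Col4a1 at 4026 against 652 and Col4a2 at 2272 against 481. Other chains were lower, such as Lama5 (238 against 671).

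Interferon-induced families were lower almost throughout. All 8 guanylate-binding proteins compared were lower by at least 2-fold (median -3.99), and the highest levels in the unsorted library were those of Gbp2 (30.9 against 617) and Gbp2b (7.15 against 229). Of 8 Ifi and Ifit genes 7 were lower, among them Ifi35 (24.9 against 149) and Ifit1 (0.612 against 39.7). Of 9 Serpinb genes, which inhibit proteases of cells and of immune granules, 7 were lower and Serpinb6c was higher (56.5 against 12.1). Guanylate-binding and Serpinb9 genes are clusters of close copies, so the values of single copies are uncertain where reads were shared. Markers of immune cells were mostly at or near 0. Ptprc, C1qa and C1qb were listed at 0 in both libraries, and 3 macrophage markers had traces that were higher in the unsorted one: Aif1 at 0 against 16.6 (about 18 reads), Csf1r at 1.46 against 4.15 and Cx3cr1 at 0.860 against 3.0. The part of such cells in these differences was not tested. The summed signal of the blood, endothelium and macrophage list was 111 and 148, and 5 of its 15 genes were compared, with 1 higher and 3 lower.

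**Figure D5:**
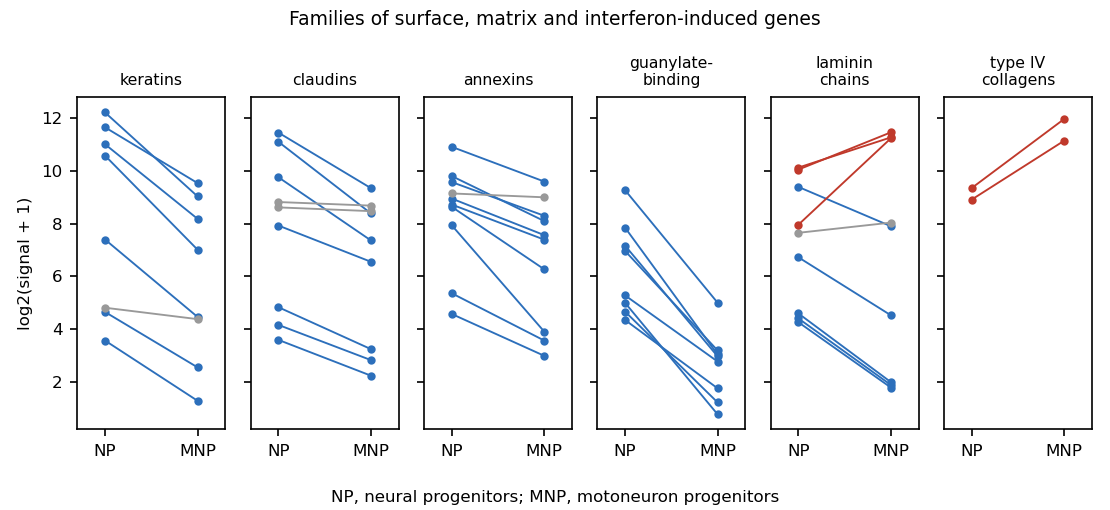
Signal as log2(signal + 1) of each gene of the families of surface, matrix and interferon-induced genes in the neural progenitors (NP) and the motoneuron progenitors (MNP), 1 panel a family, with a line joining the 2 values of a gene. Lines fall from left to right for the keratins, claudins, annexins and guanylate-binding proteins, and climb for Col4a1 and Col4a2.

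Imprinted genes, which are read from 1 parental copy, had the widest spread of the 38 lists and families: 35 compared, 11 higher, 12 lower, from -3.87 to 9.87. The upper end is that of Mest alone, a marker given beforehand, so this range says little of the other members. The median of 0.23 became -0.09 at equal totals. Mest was at the top, with about 33483 reads in the sorted and 33 in the unsorted library (log2 ratio 9.50 to 10.53 by counting error). Its neighbour Copg2, which overlaps the end of Mest in libraries that do not mark strand, was at 578 and 580.3, so the difference did not extend to it. In all embryonic libraries Mest was present: 404, 467 and 545 (lowest, median and highest) in WT motoneurons, and 239, 505 and 1248 in V1, V2a and V3. The unsorted neural progenitors were thus the only library of these with a Mest signal under 200.

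Other imprinted genes fell on both sides. Higher in the sorted cells were the zinc finger gene Plagl1 (1752 against 323), Nnat (3454 against 873) and Dlk1 (1053 against 281). Meg3 and Rian, long RNAs made from the other parental copy of the Dlk1 region, were lower: Meg3 614 against 1719, Rian 695 against 1477. Igf2 and H19, reciprocal genes of chromosome 7, were both lower, with Igf2 at 1221 against 6491 and H19 at 269 against 1208. Phlda2 (78.8 against 1163) and Ascl2 (13.0 against 105), both known for roles in the placenta, were the lowest of the list.

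None of 21 glycolysis and hypoxia genes was higher by 2-fold and 6 were lower (28.6%, against 14.2% over all genes; median -0.52). The 6 hold the hypoxia-induced genes Adm (43.2 against 491), Ndrg1 (149 against 1508) and Bnip3 (1040 against 3302), whereas the glycolytic enzymes Ldha (17966 and 11466) and Pkm (27676 and 20898) were within 2-fold. Of 16 p53 target and cell death genes none was higher and 4 were lower (25%; median -0.32), counts not far from the shares over all genes. The lower ones include Trp53inp1 (229 against 1182) and Ccng1 (864 against 2233). Immediate early genes, which respond to stimuli within minutes, split 4 to 3 among 19, with Ier2 at 1402 against 599, Fos at 181 and 324 and Junb at 139.9 against 479. Of 8 metallothionein and zinc transporter genes none was higher and 2 were lower, Mt2 (6536 against 13584) and Slc30a3 (2.82 against 40.6). The shares over all genes, 8.14% higher and 14.2% lower, apply to these last 2 lists as well.

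The host genes of miR-218, the microRNA on which the study centres, were weakly expressed at this stage. Slit2 was at 58.4 in the sorted and 24.7 in the unsorted cells (2.37-fold), and Slit3 at 139 and 62.5 (2.22-fold). In WT motoneurons Slit2 ran from 1344 to 2219 and Slit3 from 571 to 694, many times their progenitor level. Robo2, a receptor of the secreted Slit proteins, was at 92.1 against 34.7 and Robo1 at 84.0 against 66.0; of the 6 genes of this list 5 were compared and 4 were higher by 2-fold. Among 23 axon guidance genes 9 were higher and 3 lower (median 0.68). Cxcr4, a chemokine receptor, was at 428 against 61.2 while its ligand Cxcl12 was at 37.6 against 141. Epha4, the ephrin receptor that steers limb motor axons, was at 246 against 45.02.

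The largest differences of all were partly those of single entries among near-identical copies. Among the 15 genes that led on the higher side were Mest, Rnaset2b, Gm5506, Zscan4e, Crygc, Apoa2, Gm5801, Hist1h2ah, Gkn1, Gkn2, Fgl1, Tcte3, Hoxa6 and Olig1. Gm5506 had 2 entries in the table, and their sums were 21111 and 15981, a difference of only 0.40. Gm5801 (0.73) and Gm5512 (0.05) likewise lost most of theirs when entries of 1 symbol were summed. Gm3264 changed sign, from -4.77 for the single entry to 0.41 for the sum (188 against 141). BB287469 went from -5.13 to -2.27. Rnaset2b kept a difference of 2.79 (252.5 against 35.7). Olig1 and Mest have 1 entry each, and their values stand as given. The stomach gene Gkn1 (23.2) and the lens crystallin Crygc (55.4) were listed at 0 in the unsorted cells. Among the 15 at the other end were Raet1b, Serpinb9e, DQ267102, Gm5512, Mirlet7f-1, Rnaset2b, Gm5779, BB287469, Cxcl1, Hist1h2an, Ptprtos, Gbp2b, Gm3264 and E130102H24Rik. DQ267102 and Mirlet7f-1 are very short and rested on about 5 reads each in the unsorted library and 0 in the sorted one. Their counting intervals reached up to 0.13, so counting error alone covers no difference. The chemokine gene Cxcl1 was at 0.850 against 58.5.

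Among genes that reached a signal of 100, patterning genes made up more of the top. Beside Mest and the entries above, the 15 held Olig1, Hes5, Nkx2-2, Nkx2-9, Sox21 and Sox1, and 4 genes outside any list: Vstm2b (293 against 16.6), the Wnt antagonist Sost (104 against 5.45), Pga5 (160.2 against 9.09) and the water channel Aqp8 (438 against 34.7). Vstm2b was also present in every embryonic library, with a median of 236 in motoneurons. On the lower side stood Neat1, a long RNA that builds nuclear paraspeckles, at 119 against 2804, and the neuronal enolase Eno2 at 25.8 against 615. Eno2 was high again in WT motoneurons, from 885 to 1330.2. The lymphotoxin gene Ltb (7.37 against 159) and Anxa1 (13.9 against 244) were further members of that end, with Raet1b, Gm5779, E130102H24Rik, H2-K2, H2-Q2, Gbp2b, Gbp2, Gbp7, Phlda2 and Prrg4. Raet1b, H2-K2 and H2-Q2 have close copies, which makes their single values uncertain.

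The genes apart in the stem cell progenitors were finally read as 2 sets in the embryo, a measurement that shares no library with them. Of the 1076 genes higher in the motoneuron progenitors, 1022 were tested. Limma called 183 of these (17.9%) higher in WT motoneurons than in interneurons, next to 17.7% of all genes, and 239 (23.4%) lower, next to 15.2%. Of the 1875 genes lower in the motoneuron progenitors 1559 were tested, and 276 (17.7%) were called higher and 186 (11.9%) lower. Without the V2a library the 186 became 105, and without V3 they became 121. The share called higher in motoneurons was thus near the background in both sets. Genes called lower were 23.4% of the first set and 11.9% of the second; the 2 sets also differ in level, with a median over their genes of 135 and 11.1 in WT motoneurons. No test of these shares was made. In the second set 374 genes (19.9%) had a median signal under 1 in WT motoneurons, against 83 (7.71%) in the first and 2.41% of the genes within 2-fold.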

How the data were processed

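Polyadenylated RNA was selected on oligo-dT beads and made into unstranded libraries, per the labels' protocols. The authors deposited a signal per gene and per transcript on RefSeq models, per the file headers: an abundance scaled for length and between libraries, and no read count. The submitters' processing notes name DESeq, bedtools, mm9 and mm10 without a role, and neither an aligner nor a counting program is named in the sources used. From the low values of genes with 1 transcript, 1 read was worth a signal times bases of 808.3 (motoneuron progenitors) or 806.1 (neural progenitors); 75.4% and 76.6% of these values lay within 0.1 of a whole read, so depths and intervals are approximate.

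Differences are in log2(signal + 1), which understates those of low genes, for genes with the higher signal at least 10. Signal totals were 9.88 M and 8.20 M, and 75th percentiles 228.6 and 229.8. With 1 library a group nothing was tested between the mES libraries. In the embryo, 6 WT motoneuron libraries were compared with V1, V2a and V3 as 3 members of 1 class by limma 3.58.1 (R 4.3.3, trended prior, two-sided, Benjamini-Hochberg over 16486 genes whose mean signal reached 1, threshold 0.05), a procedure tested on simulated data. Whether the replicates are separate animals is not in the labels; p-values therefore refer only to the spread between these samples, which may be technical. Coordinates and promoters are from RefSeq (GRCm38).

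A few genes that these rules name are not reported here. Named were the 15 highest and 15 lowest differences among all genes and among those that reached a signal of 100, and members of 26 lists. The members and lists were chosen with earlier results of these data known, and 13 families by symbol after values were seen. Alternatives were other pseudocounts, scalings, minimum signals, the transcript table, X and Y genes kept, entries of 1 symbol summed and libraries left out.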

Additional observations from a re-analysis of the deposited data

Results flagged for a closer look

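Among 18 genes read in each of the 6 WT motoneuron libraries, 7 had 1 library far from the other 5, and it was replicate 1 each time. Its values were 7.86 for Olig2, 40.5 for Pax6, 62.5 for Neurog2, 16.6 for Neurog1, 50.3 for Hes5, 10.8 for Neat1 and 0.454 for Stra8, each the highest of the group. Chance alone marks about 1 in 20 groups in this way, but the 7 share 1 library and are not independent of each other, so their number cannot be set against that rate. The first 5 are progenitor genes, and each had more signal in the sorted than in the unsorted stem cell progenitors. Without replicate 1, limma called 2970 genes higher and 2702 lower in motoneurons, against 2921 and 2498 with it.

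Genes of the Y chromosome were outside the comparison. In the neural progenitors Eif2s3y had a signal of 892.4, Ddx3y of 258.1, Uty of 154.2 and Kdm5d of 11.2, and all 4 were listed at 0 in the motoneuron progenitors. All 7 Y entries that reached a signal of 10 were lower in the motoneuron progenitors, whereas the medians of the autosomes ran only from -0.12 (chromosome 14) to 0.12 (chromosome 8).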

How the results depend on the processing

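With both stem cell libraries scaled to equal totals, 634 genes were higher and 2641 lower in the motoneuron progenitors, against 1076 and 1875, and at a minimum signal of 100 they were 656 and 686. The other 8 settings gave 958 to 1192 higher and 1495 to 2254 lower genes; the sum over entries of 1 symbol (1071 and 1848) was chosen after seeing the data. No named gene of 55 changed sign among 275 recomputed differences, and 41 moved beyond counting error. Gm3264, whose sign changed when its entries were summed, is not among these 55. Of 303 recomputed list medians 9, from 7 lists, changed sign. The median started beyond 2-fold in 2 of these lists: blood, endothelium and macrophage markers (1.18 at a minimum of 20) and laminin chains (0.77 at 100), where fewer genes were compared. The other 5 began nearer to 0: retinoic acid (-0.10 at equal totals, -0.16 in the transcript table), FGF, BMP and Wnt (-0.06) and imprinted genes (-0.09) at equal totals, MHC H2 genes (0.39 at 100), and neural crest and glial markers (0.08 at 5 and at 20).

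In the embryo, leaving out V1, V2a or V3 gave 2201 to 2577 genes higher and 1483 to 2139 lower in motoneurons, and 2970 and 2702 without WT replicate 1. Among genes higher in the motoneuron progenitors, 144 to 181 were called higher and 180 to 258 lower; among the lower genes 214 to 267 and 105 to 220. Hox genes called lower were 22 to 24, and those called higher stayed at 0. No paired analysis was possible because the stem cell and interneuron groups have 1 library each, so the groups compared share fewer than 2 replicate numbers.

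Depth limits low genes: a signal of 10 in a transcript of 2000 bases rests on about 25 reads. The lack of replicates limits every stem cell difference, whatever its counting interval.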
